A study of Mus musculus with 16 samples.

Results

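The 9 genes described here set the pace of the G1 phase of the cell cycle: the D-type cyclins Ccnd1, Ccnd2 and Ccnd3, their partner kinases Cdk4 and Cdk6, the inhibitors Cdkn1a (p21), Cdkn1b (p27) and Cdkn2c (p18), and the retinoblastoma gene Rb1. They are 9 of the 21887 protein-coding genes to which the deposited peak lists were matched. Each locus was the gene body on the mouse build mm10 with 10 kb added on either side, and a peak counted when it covered at least 1 bp of that span. Peaks of all 16 lists that shared at least 1 bp were joined into merged regions, of which 32 of 34234 lay at these loci.

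A D-type cyclin binds Cdk4 or Cdk6, and the active pair phosphorylates the retinoblastoma protein, which then releases E2F factors that switch on the genes of DNA replication. The INK4 inhibitor Cdkn2c binds Cdk4 and Cdk6 and keeps them from the cyclins, while the Cip/Kip inhibitors Cdkn1a and Cdkn1b bind cyclin and kinase pairs, above all those of Cdk2. In blood-forming cells the choice between rest and division depends on this switch, and Cdk6 is known there for its part in the exit of stem and progenitor cells from quiescence.

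Binding of 2 transcription factors was profiled by CUT&Tag, in which an antibody brings a transposase to the bound DNA so that the DNA around it is tagged for sequencing. The cells were MPP3, a myeloid-biased multipotent progenitor population, sorted from the bone marrow of KO-iMOS and WT-iMOS mice. Bcl11a, a zinc finger repressor, was profiled in WT-iMOS cells (3 T2 and 3 T1 libraries). Spi1 (PU.1), an ETS factor without which myeloid and B cells do not form, was profiled in KO-iMOS cells (2 T2 and 2 T1 libraries) and in WT-iMOS cells (3 T2 and 3 T1 libraries). The titles of all libraries also carry 3m. The study stated that it aimed to learn how Bcl11a works in MPP3 cells. The terms iMOS, T1, T2 and 3m are not explained in the labels, nor is it said which gene KO-iMOS mice lack, or whether replicates came from separate animals, so p-values measure only the spread between these libraries. Peak lists hold no expression values, so neither the cell type nor the knockout could be checked.

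The lists held 2719 to 20241 peaks, 4740 ± 1725 for Bcl11a in WT-iMOS (SD, n = 6), 13637 ± 5724 for Spi1 in KO-iMOS (SD, n = 4) and 8159 ± 2763 for Spi1 in WT-iMOS (SD, n = 6). Read depth is unknown, and a gene or region had more chances of a peak in a longer list. The part of list length in the counts below was not tested beyond the shortened lists given with the other settings. The peak names of the KO-iMOS T1 libraries begin with PWT and those of the KO-iMOS T2 libraries with PKO, so the names and the labels disagree. Groups follow the labels, and KO-iMOS counts are also given by T.

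The 9 loci together received 148 peaks. A library had 6.83 ± 2.64 of them for Bcl11a (SD, n = 6), 14.0 ± 6.16 for Spi1 in KO-iMOS (SD, n = 4) and 8.50 ± 5.65 for Spi1 in WT-iMOS (SD, n = 6). Per 1000 peaks on assembled chromosomes this was 1.49 ± 0.236, 1.04 ± 0.0756 and 0.977 ± 0.365 in the same order of groups. In each of the 3 groups, 7 of the 9 genes had a peak in at least 2 libraries. Over all genes the same held for 25.3% with Bcl11a, for 49.8% with Spi1 in KO-iMOS and for 33.5% with Spi1 in WT-iMOS. With the lists shortened to the length of the shortest, 6 of the 9 genes reached 2 libraries with Bcl11a (14.5% of all genes), 2 with Spi1 in KO-iMOS (12.2%) and 2 with Spi1 in WT-iMOS (12.9%). Bcl11a T1 replicates 2 and 3 had peaks at 7 of the 9 genes each, against 3 or 4 in the other 4 Bcl11a libraries, and also the highest shares of all genes with a peak among the Bcl11a libraries (24.3% in replicate 2 and more in replicate 3). Without these 2 libraries, 4 of the 9 genes reached 2 Bcl11a libraries.

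**Figure D1:**
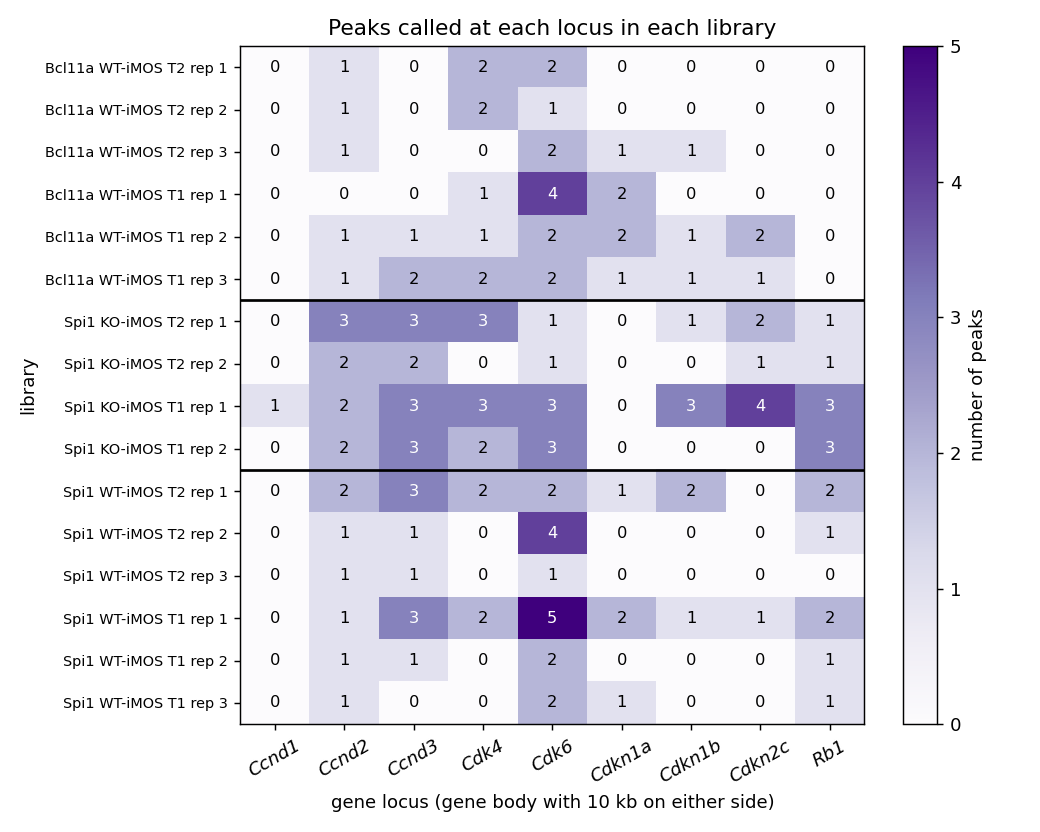
Number of peaks (cell values and shade) at each of the 9 gene loci (columns) in each of the 16 libraries (rows, grouped by target and genotype). Cdk6 has at least 1 peak in every row, Ccnd1 has a single peak in Spi1 KO-iMOS T1 replicate 1, Rb1 has none in any Bcl11a row, and Cdkn1a has none in any Spi1 KO-iMOS row.

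Cdk6 had a peak in all 16 libraries, which held for 1.54% of all genes, and 335 other genes outside its locus had the same pattern. When every list was shortened to the length of the shortest, counted by the strongest 2605 peaks on assembled chromosomes, Cdk6 kept a peak in 6 of 6 Bcl11a libraries, in 0 of 4 KO-iMOS libraries and in 6 of 6 WT-iMOS Spi1 libraries. The genotypes then differed with p = 0.00476 (Fisher's exact test), the smallest that 4 against 6 libraries can give, and an adjusted p of 0.146, and 1.57% of the 5019 loci then compared had that form. The lists held 6372 to 20241 peaks in KO-iMOS and 5068 to 12261 for Spi1 in WT-iMOS. This cut was stricter in a longer list, and a peak lost by it is not a measured absence. With the lists at full length Cdk6 was the only one of the 9 with Bcl11a in every library (3.54% of all genes). Spi1 was present in every KO-iMOS library at Ccnd2, Ccnd3, Cdk6 and Rb1 (22.3% of all genes) and in every WT-iMOS library at Ccnd2 and Cdk6 (10.4% of all genes). Of the 32 merged regions, 17 lay inside a gene, 4 lay over a gene end, 7 lay beyond the upper and 4 beyond the lower coordinate of the gene. A peak was found in 15 of them with Bcl11a, in 27 with Spi1 in KO-iMOS and in 21 with Spi1 in WT-iMOS. Bcl11a and Spi1 shared 13 regions in WT-iMOS. There were 9 regions with a peak in a single library, 6 of them from Spi1 KO-iMOS T1 replicate 1, which had the longest list, and 6 regions with a peak in 8 or more libraries.

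**Figure D2:**
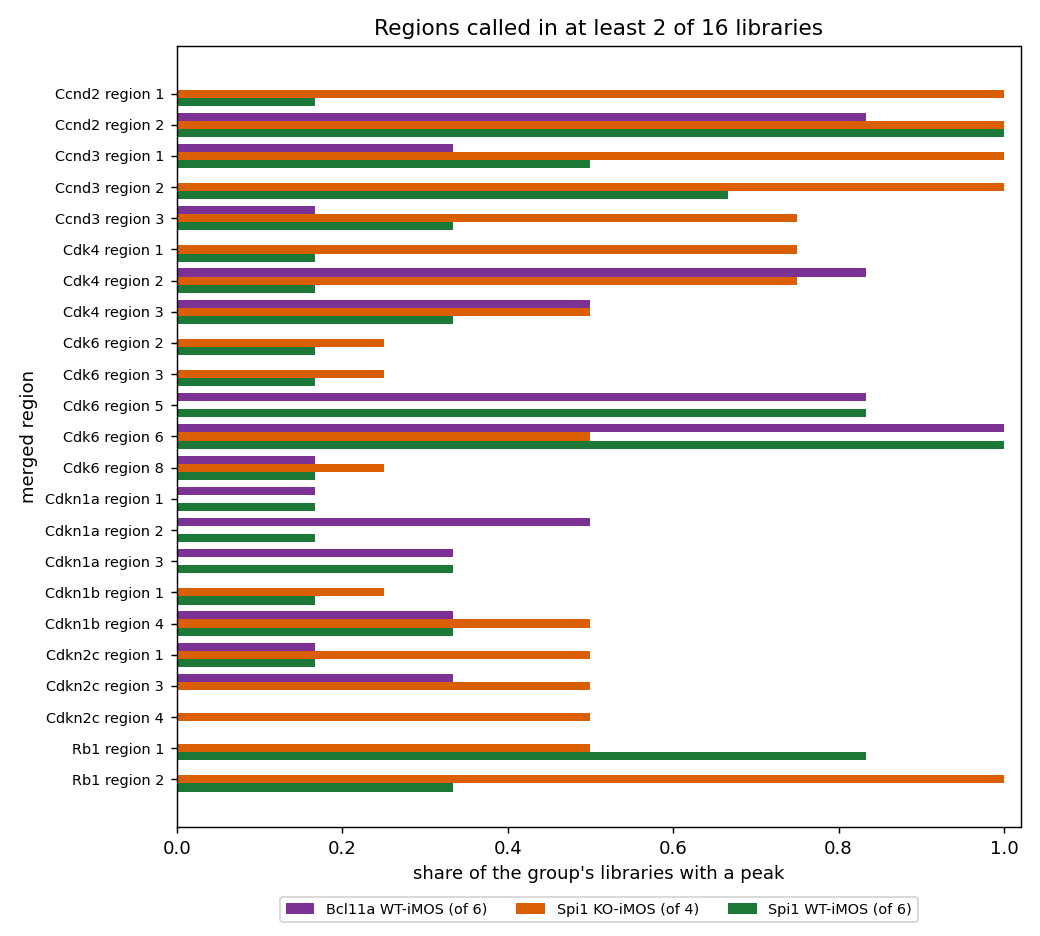
Share of a group's libraries with a peak (horizontal axis, from 0 to 1) for the 23 merged regions called in at least 2 of 16 libraries. Bars are Bcl11a WT-iMOS (of 6), Spi1 KO-iMOS (of 4) and Spi1 WT-iMOS (of 6), from top to bottom in each region. Cdk6 region 5 has long Bcl11a and Spi1 WT-iMOS bars and no KO-iMOS bar, and Ccnd2 region 1 has a full KO-iMOS bar beside 1 of 6 WT-iMOS libraries.

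The promoter sequences that bear on these peaks are given here because some peaks at Cdk4 and Cdkn2c and next to Ccnd3 and Cdkn2c lay over promoters. Cdk6, with a peak in every library, had none over the only promoter window listed for it. The start site of that window (chr5:3343893) lay inside the Cdk6 gene body used here, which began at 3341004. Cdkn1b had a peak over its window in 2 libraries, and its sequence is not shown. Each line is the 250 bases before a start site, 5′ to 3′ on the gene's strand, from RefSeq with the build GRCm38.p6, which mm10 stands for. Windows were found for 6 of the 9 genes. Capitals mark matches to 3 motifs on either strand. The first is GAGGAA, the core that Spi1 is known to bind. The second is TGACCA, the known Bcl11a motif. The third is CACGTG, an E-box bound by Myc and related factors, which was chosen after the Cdk4 sequence was seen. Taf8, which encodes a subunit of the general factor TFIID, neighbours Ccnd3, and Faf1, which encodes a Fas-associated factor, neighbours Cdkn2c.
Cdk4, chr10:127063285-127063534, plus strand: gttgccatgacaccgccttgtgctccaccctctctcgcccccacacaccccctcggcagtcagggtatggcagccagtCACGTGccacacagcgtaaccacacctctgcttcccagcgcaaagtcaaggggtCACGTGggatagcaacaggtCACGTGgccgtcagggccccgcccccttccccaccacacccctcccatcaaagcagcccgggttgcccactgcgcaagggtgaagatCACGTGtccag
Taf8, chr17:47502292-47502541, minus strand: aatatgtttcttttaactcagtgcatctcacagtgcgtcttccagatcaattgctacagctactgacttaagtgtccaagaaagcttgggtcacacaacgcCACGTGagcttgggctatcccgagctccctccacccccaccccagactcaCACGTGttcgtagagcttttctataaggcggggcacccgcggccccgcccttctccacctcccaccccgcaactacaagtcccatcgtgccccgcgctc
Cdkn2c, chr4:109666757-109667006, minus strand: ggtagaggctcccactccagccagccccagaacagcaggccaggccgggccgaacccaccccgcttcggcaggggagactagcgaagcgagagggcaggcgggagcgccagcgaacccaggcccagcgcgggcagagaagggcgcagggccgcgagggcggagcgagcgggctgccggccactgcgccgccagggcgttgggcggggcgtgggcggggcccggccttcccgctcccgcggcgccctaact
Faf1, chr4:109676377-109676626, plus strand: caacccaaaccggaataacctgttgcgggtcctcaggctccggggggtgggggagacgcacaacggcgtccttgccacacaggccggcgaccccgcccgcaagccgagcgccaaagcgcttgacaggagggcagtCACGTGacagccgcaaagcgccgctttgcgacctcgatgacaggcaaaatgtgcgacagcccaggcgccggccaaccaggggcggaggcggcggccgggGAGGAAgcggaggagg
Cdk6, chr5:3343643-3343892, plus strand: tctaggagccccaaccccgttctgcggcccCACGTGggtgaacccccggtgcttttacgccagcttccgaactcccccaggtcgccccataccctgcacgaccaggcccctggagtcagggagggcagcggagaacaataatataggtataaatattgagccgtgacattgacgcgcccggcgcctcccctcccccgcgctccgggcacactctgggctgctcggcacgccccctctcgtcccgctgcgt

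The Cdk4 stretch held 4 E-boxes and neither of the other motifs. Every peak over it covered the E-box nearest to the start site. All 4 were covered only by the peaks of Bcl11a T1 replicate 3 and of Spi1 KO-iMOS T1 replicates 1 and 2. The Taf8 stretch held 2 E-boxes, the Cdk6 stretch 1 and the Cdkn2c stretch none of the 3 motifs. At Taf8 only the peak of Spi1 KO-iMOS T2 replicate 1, which ended at 47502395, reached an E-box. It covered the one nearer to the start site, and the other lay under no peak. The Faf1 stretch held 1 match to GAGGAA and 1 E-box. Of other windows that a peak overlapped at the 9 loci, those of Gm36470, of 9630013D21Rik and of the second start of Cdkn2c (chr4:109665373-109665622, minus strand) each held 1 match to GAGGAA, while those of Cdkn1b and Lockd held none of the 3 motifs. The match of 9630013D21Rik lay under no peak, since the peaks there ended at 109657612 at the highest. Among 32851 promoter stretches of the same length, 23.3% held GAGGAA, 11.4% held TGACCA, 6.02% held CACGTG and 0.0213% held 4 or more E-boxes. GC content was 64.4% for Cdk4, 56.4% for Taf8, 77.2% for Cdkn2c, 69.2% for Faf1 and 66.0% for Cdk6, against a median of 52.4% over all stretches. CpG pairs numbered 13, 14, 29, 27 and 22 for these genes in turn, against a median of 6. A match describes the letters only and need not lie under a peak.

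Ccnd1, the D-type cyclin best known in epithelial cells, had 1 peak in all. It lay inside the gene at chr7:144932267-144932628 in Spi1 KO-iMOS T1 replicate 1, with a deposited fold enrichment of 3.28 that put it among the weakest of its list. The other 15 libraries had no peak at the locus.

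Ccnd2, the D-type cyclin of many blood and immune cells, had 2 regions and a peak in 15 of 16 libraries. Region 2 (chr6:127151231-127152891) lay over the upper end of the gene, and Bcl11a was present there in 5 of 6 libraries (3 of 3 T2, 2 of 3 T1). Spi1 was present in 4 of 4 KO-iMOS and in 6 of 6 WT-iMOS libraries. Thus both factors were called in this region in nearly every library. Fold enrichment of the strongest peak ran from 3.48 to 6.15 with Bcl11a (median 4.49), from 4.16 to 6.22 with Spi1 in KO-iMOS (median 5.07) and from 3.53 to 6.34 with Spi1 in WT-iMOS (median 4.66).

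Within this region the summits of the 2 factors were compared in WT-iMOS, and the difference did not pass the adjustment. The Bcl11a summits lay 411 to 165 bp inside the upper gene end (median 221), and the Spi1 WT-iMOS summits 818 to 409 bp inside it (median 517.5). The mean summit was 319 bp nearer to the gene end with Bcl11a, and the ranges overlapped by 2 bp, since the deepest Bcl11a summit lay at 411 bp and the shallowest Spi1 summits at 409 bp (exact permutation test, two-sided, p = 0.0130, adjusted p = 0.299 over 1611 regions). Of those 1611 regions, each with at least 4 libraries of both targets, 0 passed an adjusted p of 0.05, 11.1% had an unadjusted p under it, and 7.14% had a mean difference of 200 bp or more. The median absolute difference was 38.8 bp. Spi1 summits in KO-iMOS lay 796 to 487 bp inside the gene, apart from a second peak of T2 replicate 1 whose summit lay 416 bp outside it.

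Ccnd2 region 1 (chr6:127142871-127143713) lay inside the gene, 8475 bp from its nearer end. Bcl11a had no peak there. Spi1 was present in all 4 KO-iMOS libraries, with fold enrichments of 4.92 and 5.49 (T2) and 6.001 and 5.60 (T1), and in 1 of 6 WT-iMOS libraries (T2 replicate 1), with 4.39. The summits of all 5 peaks lay within 172 bp. The genotypes differed with an unadjusted p of 0.0476 by Fisher's exact test and an adjusted p of 0.247. The form of 4 of 4 KO-iMOS and at most 1 of 6 WT-iMOS libraries was found in 6.05% of the 19539 regions compared.

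**Figure D3:**
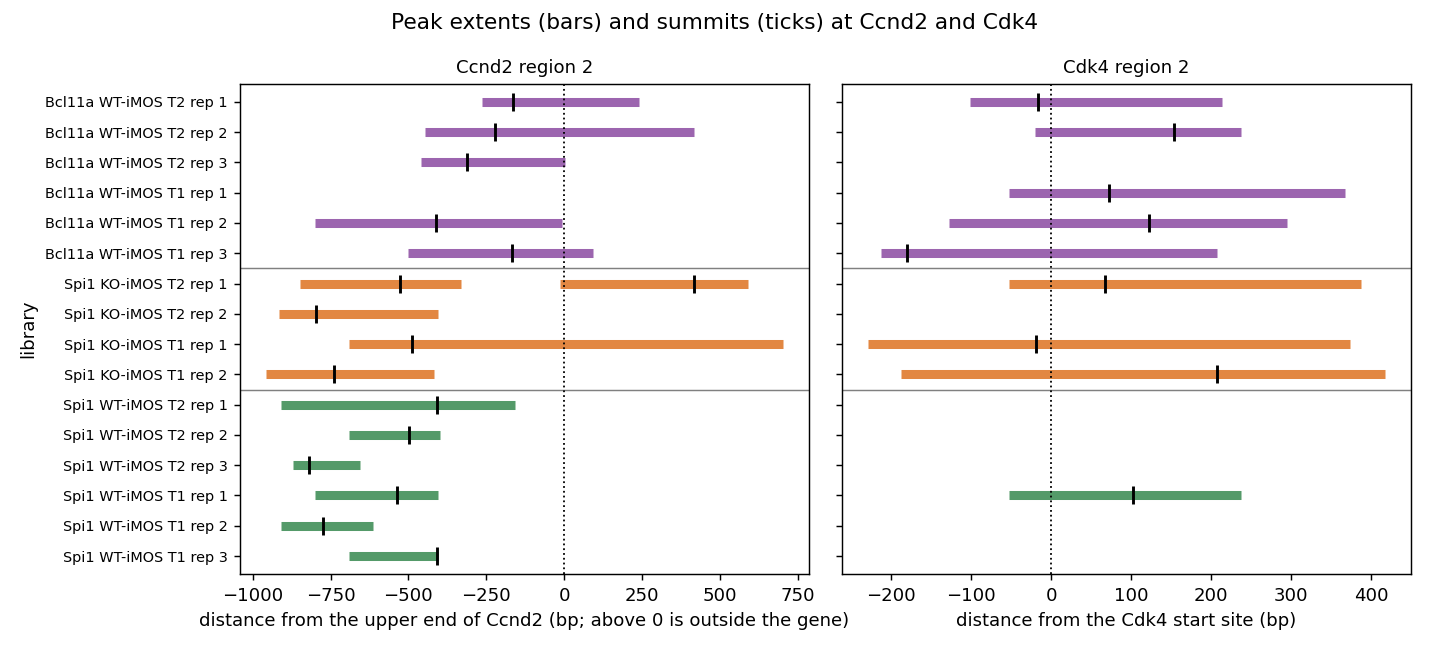
Extent (bar) and summit (tick) of every peak in Ccnd2 region 2 (left, distance in bp from the upper gene end) and Cdk4 region 2 (right, distance in bp from the start site) for the 16 libraries, with Bcl11a WT-iMOS at the top, then Spi1 KO-iMOS, then Spi1 WT-iMOS. Bcl11a summits at Ccnd2 lie 411 to 165 bp inside the gene end and Spi1 WT-iMOS summits 818 to 409 bp inside it, and all 9 Cdk4 bars cover the start site.

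Ccnd3, the D-type cyclin with a known part in lymphoid and red cell growth, had 3 regions. Locus counts were 2 of 6 libraries with Bcl11a (both T1), 4 of 4 with Spi1 in KO-iMOS and 5 of 6 with Spi1 in WT-iMOS. Region 1 (chr17:47501937-47502395) lay 2656 bp below the gene, over the start site of Taf8 shown above. It had peaks in 2 Bcl11a libraries (T1 replicates 2 and 3), in all 4 KO-iMOS libraries and in 3 WT-iMOS libraries (2 T2, 1 T1). Its peaks shared a base in all 9 libraries, and their summits spanned 149 bp. The peaks of Bcl11a T1 replicate 2 and WT-iMOS T2 replicate 2 ended below the Taf8 start site, at 47502286 and 47502231. Fold enrichment was 4.68 and 4.61 with Bcl11a, 6.98 to 9.53 in KO-iMOS and 4.68 to 8.09 in WT-iMOS.

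Ccnd3 region 2 (chr17:47507666-47508438) lay inside the gene, 3001 bp downstream of the first listed start site. Spi1 was present there in 4 of 4 KO-iMOS and in 4 of 6 WT-iMOS libraries (2 T2, 2 T1), while Bcl11a was present in 0 of 6. The 2 targets differed with an unadjusted p of 0.0606 in WT-iMOS (Fisher's exact test, adjusted p = 0.338). Fold enrichment ran from 5.02 to 5.91 in KO-iMOS and from 4.37 to 6.61 in WT-iMOS. Region 3 (chr17:47521412-47521944), 16627 bp from the start site, had a peak in 1 Bcl11a library (T1 replicate 3), in 3 KO-iMOS libraries (1 T2, 2 T1) and in 2 WT-iMOS libraries (1 T2, 1 T1). No peak covered either promoter window of Ccnd3.

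Cdk4, a kinase of the D-type cyclins, had Bcl11a over its promoter in most libraries. Region 2 (chr10:127063306-127063952) covered the start site, with Bcl11a in 5 of 6 libraries (2 of 3 T2, 3 of 3 T1). Spi1 was present in 3 of 4 KO-iMOS libraries (1 of 2 T2, 2 of 2 T1) and in 1 of 6 WT-iMOS libraries (T1 replicate 1). Bcl11a peaks in at least 5 of 6 libraries were found at 0.992% of all promoter windows. The Bcl11a summits lay from 180 bp before to 154 bp after the start site, and the Spi1 summits from 19 bp before to 207 bp after it in KO-iMOS and 103 bp after it in WT-iMOS.

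The peaks over Cdk4 were not among the strongest of their lists. Fold enrichment was 5.92 and 5.55 in the T2 Bcl11a libraries and 3.35, 4.47 and 4.02 in the T1 ones. With Spi1 it was 6.54 (T2) and 6.30 and 6.84 (T1) in KO-iMOS and 4.505 in the WT-iMOS library. By the deposited −log10 p, the Bcl11a peaks stood between percentiles 5.60 and 61.7 of their own lists, where the strongest peak of a list is at 100. Bcl11a and Spi1 in WT-iMOS differed with an unadjusted p of 0.0801 (Fisher's exact test, adjusted p = 0.409), and KO-iMOS and WT-iMOS with 0.190 (adjusted p = 0.377).

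The other 2 regions at Cdk4 lay in or beside neighbouring genes. Region 1 (chr10:127055216-127055875), 175 bp from Marchf9, had Spi1 in 3 of 4 KO-iMOS libraries (1 T2, 2 T1) and in 1 of 6 WT-iMOS libraries (T2 replicate 1), and no Bcl11a. Its 4 summits spanned 3 bp. Region 3 (chr10:127075243-127076315) lay in Agap2 and had peaks in 3 Bcl11a libraries (2 T2, 1 T1), 2 KO-iMOS libraries (1 T2, 1 T1) and 2 WT-iMOS libraries (1 T2, 1 T1).

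Cdk6, the other kinase of the D-type cyclins, had the longest locus (210.005 kb) and 8 regions, all inside the gene. This came to 3.81 regions per 100 kb, against a median of 1.17 over 689 genes whose locus was within 20% of that length and 2.21 over all genes. There were 5 regions with a peak in at least 2 libraries, or 4 of 9 when peaks had to share at least 100 bp to be merged. None covered the Cdk6 promoter window shown above. Most of the calls came from regions 5 and 6, which lay 93454 and 136187 bp downstream of the start site.

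Cdk6 region 6 (chr5:3479720-3480440) had Bcl11a in 6 of 6 libraries, Spi1 in 2 of 4 KO-iMOS libraries (T2 replicate 1 and T1 replicate 2) and Spi1 in 6 of 6 WT-iMOS libraries. The form of 6 of 6 with both targets was found in 4.65% of the 13637 regions compared in WT-iMOS. All 14 peaks shared a base, and their summits spanned 151 bp. Among 3341 regions with a peak in at least 10 libraries the median summit span was 268 bp, and 20.5% spanned as little as this one or less. The mean summits of Bcl11a and Spi1 in WT-iMOS lay 1.67 bp apart, with SDs of 29.6 and 25.7 bp (n = 6 each, exact permutation test, two-sided, p = 0.926).

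Region 6 also held the highest fold enrichment at the 9 loci. Fold enrichment ran from 7.29 to 11.3 with Bcl11a (median 9.01). With Spi1 it was 10.1 and 7.38 in the 2 KO-iMOS libraries and 6.18 to 9.70 in WT-iMOS (median 8.31). By the deposited −log10 p, the Bcl11a peaks stood between percentiles 77.3 and 93.4 of their own lists. Spi1 peaks stood at percentiles 80.9 and 57.7 in KO-iMOS and between 58.1 and 90.3 in WT-iMOS, so every one was in the upper part of its list. The genotypes differed with an unadjusted p of 0.133 (Fisher's exact test, adjusted p = 0.323). With every list shortened to its strongest 2605 peaks, region 6 kept a peak in 0 of 4 KO-iMOS and in all 6 WT-iMOS Spi1 libraries (Fisher's exact test, p = 0.00476, adjusted p = 0.0711), a form found in 4.15% of the 4436 regions then compared. Bcl11a kept it in 6 of 6. The 2 KO-iMOS peaks stood at ranks 2848 (T2 replicate 1) and 5522 (T1 replicate 2) of their full lists. WT-iMOS T2 replicate 3 kept its peak, at rank 2122 and with a fold of 6.18. KO-iMOS T2 replicate 2 (6372 peaks) and T1 replicate 1 (20241 peaks, the longest list) had no peak in region 6 at full length. The same rank is a stricter cut in a longer list, and the 0 is not a measured loss. The part of list length was not tested.

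Cdk6 region 5 (chr5:3436148-3438547) was of another kind: wide, lower in fold and without a peak in KO-iMOS. Bcl11a was present in 5 of 6 libraries (2 of 3 T2, 3 of 3 T1). Spi1 was present in 0 of 4 KO-iMOS libraries and in 5 of 6 WT-iMOS libraries (2 of 3 T2, 3 of 3 T1). So both WT-iMOS groups had the region in all but 1 library each. The genotypes differed with an unadjusted p of 0.0476 (Fisher's exact test) and an adjusted p of 0.247. The form of 0 of 4 KO-iMOS and at least 5 of 6 WT-iMOS libraries was found in 3.29% of the 19539 regions.

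Region 5 spanned 2400 bp and was built from 13 peaks in 10 libraries, and the best covered base was shared by 6 libraries. Only 12 of the 21649 regions with a peak in at least 2 libraries (0.0554%) were as wide. Its summits spanned 2170 bp, and 0.180% of the 3341 regions with a peak in at least 10 libraries reached that span. Single peaks were 208 to 1390 bp wide. Mean summits of Bcl11a and Spi1 lay 588 bp apart, with SDs of 687 and 406 bp (n = 5 each, exact permutation test, two-sided, p = 0.135, adjusted p = 0.663). Fold enrichment ran from 3.87 to 4.94 with Bcl11a (median 4.12) and from 4.26 to 4.79 with Spi1 in WT-iMOS (median 4.53), counting the strongest peak of each library. In all 10 libraries the fold was below that of the same library in region 6. By the deposited −log10 p, the strongest Bcl11a peaks stood between percentiles 11.7 and 76.1 of their own lists (median 42.3). Those of Spi1 in WT-iMOS stood between 23.5 and 59.0 (median 53.4).

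**Figure D4:**
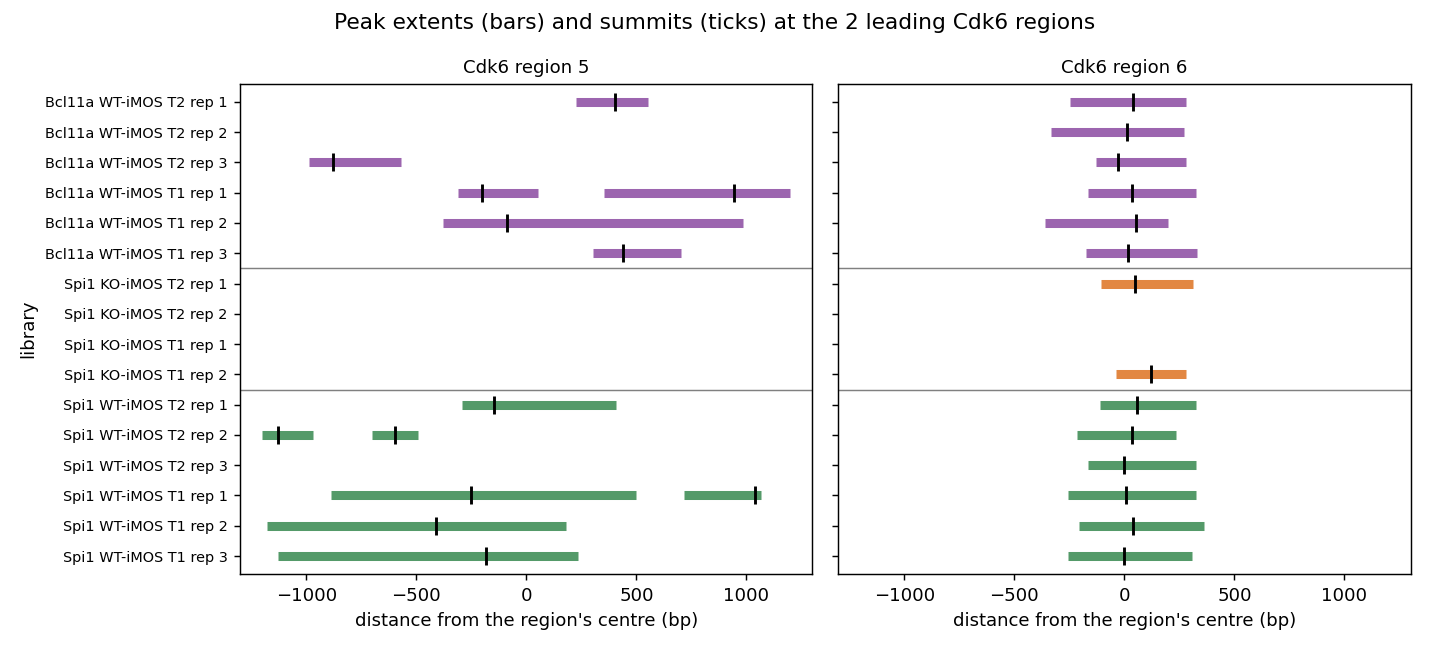
Extent (bar) and summit (tick) of every peak in Cdk6 region 5 (left) and region 6 (right) for the 16 libraries, with Bcl11a WT-iMOS at the top, then Spi1 KO-iMOS, then Spi1 WT-iMOS, as distance in bp from the region's centre. Region 6 has 14 bars with summits within 151 bp, and region 5 has 13 bars with summits spread over 2170 bp and none in the KO-iMOS rows.

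The remaining 6 regions of Cdk6 were sparse. Region 1 (chr5:3341231-3341652) was called in Spi1 KO-iMOS T1 replicate 2 only. Region 2 (chr5:3342220-3342807) was called in KO-iMOS T2 replicate 2 and in WT-iMOS T2 replicate 2. Its KO-iMOS peak covered the start of the neighbouring transcript Gm36470, at 3342252, and ended at 3342595. Its WT-iMOS peak began at 3342592, so it did not cover that start and barely overlapped the other. Region 3 (chr5:3358891-3359227) was called in KO-iMOS T1 replicate 2 and in WT-iMOS T1 replicate 1. The calls in regions 1 to 3, nearest to the Cdk6 start site, were all of Spi1 and came from 1 or 2 libraries a region. By the deposited −log10 p they stood between percentiles 4.44 and 22.9 of their lists. Bcl11a lists were shorter on the whole, so the lack of a Bcl11a peak there is not a measured absence. Region 4 (chr5:3405065-3405511) and region 7 (chr5:3497614-3497947) were each called in KO-iMOS T1 replicate 1 only. Region 8 (chr5:3502723-3503227) was called in 1 library of each group, T1 in each case. Fold enrichment in these 6 regions ran from 3.65 to 5.70.

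**Figure D5:**
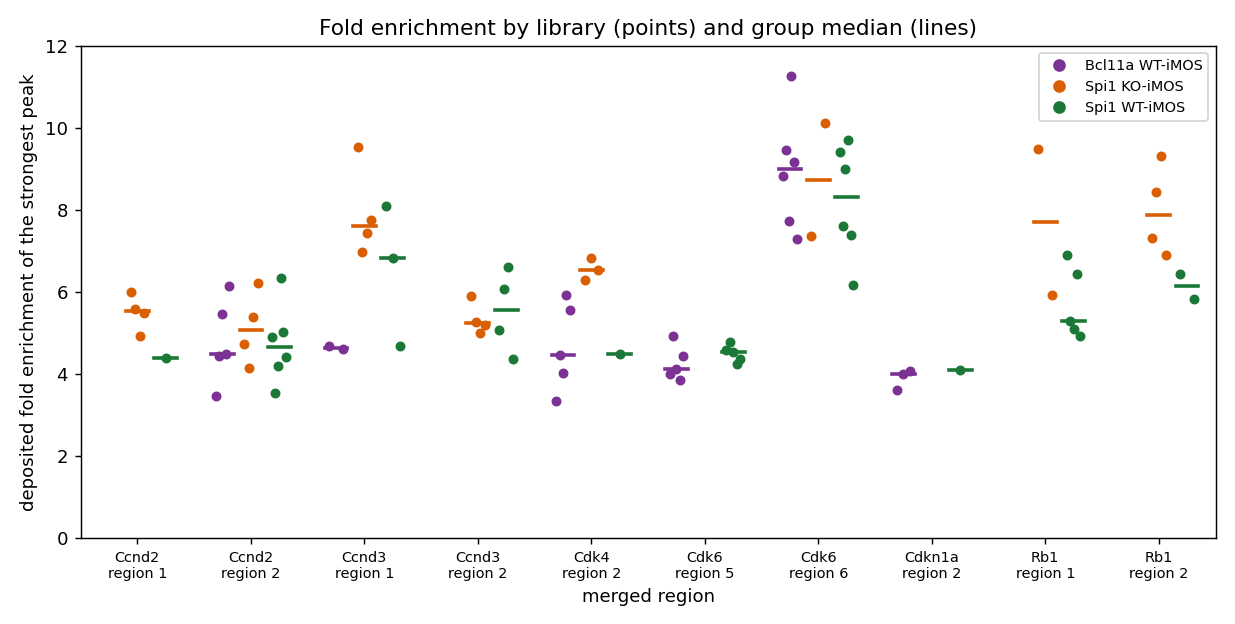
Deposited fold enrichment of the strongest peak (vertical axis) in each library (points) with the group median (lines) for 10 merged regions, with Bcl11a WT-iMOS, Spi1 KO-iMOS and Spi1 WT-iMOS from left to right in each. Libraries without a peak have no point. Cdk6 region 6 has the highest value, 11.3, and Cdk6 region 5 runs from 3.87 to 4.94. Values are the authors' and belong to the list they come from, so groups stand side by side and are not compared.

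Cdkn1a (p21), the p53 target that arrests cells in G1, had no Spi1 peak in KO-iMOS and peaks in 4 of 6 Bcl11a and 3 of 6 Spi1 libraries in WT-iMOS. A locus with 0 of 4 KO-iMOS libraries and at least 7 of the 12 WT-iMOS libraries was found for 0.868% of all genes. Between the genotypes its unadjusted p was 0.2 (Fisher's exact test, adjusted p = 0.527). Region 2 (chr17:29094604-29095547), inside the gene and 1306 bp downstream of the second listed start site, held Bcl11a in none of the 3 T2 libraries and in all 3 T1 libraries. Fold enrichment there was 3.62, 4.01 and 4.07 in the 3 Bcl11a libraries and 4.09 in Spi1 WT-iMOS T1 replicate 1, the only Spi1 library with a peak. T2 and T1 differed with an unadjusted p of 0.05 (exact permutation within target and genotype, adjusted p = 1). Region 1 (chr17:29087479-29087869), below the gene, was called in Bcl11a T1 replicate 2 and Spi1 WT-iMOS T1 replicate 3. Region 3 (chr17:29107255-29107877), above the gene, was called in 2 Bcl11a and 2 Spi1 WT-iMOS libraries (1 T2, 1 T1 each). No peak covered either promoter window of Cdkn1a.

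Cdkn1b (p27), the inhibitor that holds resting cells out of the cycle, had peaks in 3 of 6 Bcl11a libraries (1 T2, 2 T1), 2 of 4 Spi1 KO-iMOS libraries and 2 of 6 Spi1 WT-iMOS libraries (1 T2, 1 T1 each). Its leading region was not in the gene but 2770 bp above it. This region 4 (chr6:134928295-134929141) was called in 2 libraries of each group, 1 T2 and 1 T1 every time. Only the peak of Spi1 KO-iMOS T2 replicate 1 reached the start of the long non-coding RNA Lockd, at 134929092. Fold enrichment was 6.39 and 5.99 with Bcl11a, 3.98 and 5.59 in KO-iMOS and 4.62 and 4.47 in WT-iMOS. Over the Cdkn1b start site, region 1 (chr6:134920396-134920681) was called in KO-iMOS T1 replicate 1 and WT-iMOS T2 replicate 1. Regions 2 (chr6:134922752-134923046) and 3 (chr6:134927351-134927697) had 1 library each, Spi1 KO-iMOS T1 replicate 1 and Bcl11a T1 replicate 2. The last of these was the only region of the 32 with Bcl11a and no Spi1.

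Cdkn2c (p18), the INK4 inhibitor known for limiting the division of blood stem cells, had peaks in 2 of 6 Bcl11a libraries (both T1), 3 of 4 Spi1 KO-iMOS libraries (2 T2, 1 T1) and 1 of 6 Spi1 WT-iMOS libraries (T1). Region 3 (chr4:109666787-109667228), over the promoter shown above, was called in Bcl11a T1 replicates 2 and 3 and in KO-iMOS T2 replicate 1 and T1 replicate 1, and in no Spi1 WT-iMOS library. Fold enrichment was 5.28 and 4.58 with Bcl11a and 6.32 and 5.74 in KO-iMOS. These 2 Bcl11a libraries were the ones with the most peaks at all 9 genes. The genotypes differed in this region with an unadjusted p of 0.133 (Fisher's exact test, adjusted p = 0.323). Region 1 (chr4:109657121-109657612) was called in Bcl11a T1 replicate 2, in KO-iMOS T2 replicate 2 and T1 replicate 1, and in WT-iMOS T1 replicate 1. Only its KO-iMOS T1 replicate 1 peak covered the start of 9630013D21Rik. Region 4 (chr4:109676266-109676954) was called in KO-iMOS T2 replicate 1 and T1 replicate 1, and only the second of these peaks covered the start of Faf1. Region 2 (chr4:109665505-109666089) was called in KO-iMOS T1 replicate 1 only.

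Rb1, which encodes the protein that the cyclin and kinase pairs phosphorylate, had Spi1 but no Bcl11a. Its locus had a peak in 0 of 6 Bcl11a libraries, 4 of 4 Spi1 KO-iMOS libraries and 5 of 6 Spi1 WT-iMOS libraries (2 of 3 T2, 3 of 3 T1). No Bcl11a peak beside Spi1 in at least 9 of 10 libraries was found for 1.97% of all genes. Bcl11a and Spi1 in WT-iMOS differed with an unadjusted p of 0.0152 (Fisher's exact test, adjusted p = 0.205).

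The 2 main Rb1 regions were occupied unevenly by genotype and T. Region 1 (chr14:73222222-73223211), 29364 bp inside the lower gene end, had Spi1 in 2 of 4 KO-iMOS libraries (0 of 2 T2, 2 of 2 T1) and in 5 of 6 WT-iMOS libraries (2 of 3 T2, 3 of 3 T1). Fold enrichment was 9.48 and 5.93 in KO-iMOS and 4.93 to 6.90 in WT-iMOS (median 5.30). The 7 peaks shared a base and their summits spanned 184 bp. The genotypes had an unadjusted p of 0.5 in region 1 (Fisher's exact test, adjusted p = 0.715), and T2 and T1 one of 0.167 (exact permutation). Bcl11a and Spi1 in WT-iMOS differed there with an unadjusted p of 0.0152 (Fisher's exact test, adjusted p = 0.142). Leaving out single libraries gave adjusted p from 0.0330 to 0.135. The lowest came without Spi1 WT-iMOS T2 replicate 3, the only Spi1 WT-iMOS library with no peak at Rb1. Leaving out that library puts the counts as far apart as they can be, so this value is no separate support. The form of 0 of 6 Bcl11a and at least 5 of 6 Spi1 libraries was found in 8.05% of the 13637 regions. With the lists shortened, region 1 had a peak in 0 of 6 Bcl11a and 1 of 6 WT-iMOS Spi1 libraries.

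Rb1 region 2 (chr14:73324573-73325175), 776 bp inside the upper gene end, had Spi1 in 4 of 4 KO-iMOS libraries and in 2 of 6 WT-iMOS libraries (1 T2, 1 T1). Fold enrichment was 9.31 and 6.90 in T2 and 7.33 and 8.43 in T1 in KO-iMOS, and 5.84 and 6.44 in WT-iMOS. The genotypes differed with an unadjusted p of 0.0762 (Fisher's exact test, adjusted p = 0.313). Region 3 (chr14:73325786-73326135), over the upper gene end, and region 4 (chr14:73333807-73334253), above the gene, had 1 library each, KO-iMOS T1 replicates 1 and 2 in that order.

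Across all genes, Spi1 in KO-iMOS and in WT-iMOS was compared at 14176 loci, and 0 passed an adjusted p of 0.05 in Fisher's exact test. At an unadjusted p under 0.05 there were 12.9% with a larger share of libraries in KO-iMOS and 1.37% with a larger share in WT-iMOS, and none of the 9 genes was among them. The share of libraries was larger in KO-iMOS by at least 0.5 at 1 of the 9 genes, Cdkn2c (34.7% of all genes), and larger in WT-iMOS by that much at 1, Cdkn1a (3.27%). The median difference over the 9 genes, KO-iMOS minus WT-iMOS, was 0.167, against 0.250 over all genes tested. Of 21 merged regions tested at the 9 genes, 0 passed the adjustment, as did 0 of all 19539. By size, 7 of the 21 had a share larger by at least 0.5 in KO-iMOS (42.7% of all regions) and 2, Cdk6 regions 5 and 6, a share larger by that much in WT-iMOS (10.3%). Unadjusted, Ccnd2 region 1 was the 1 region with a larger share in KO-iMOS (15.4% of all regions) and Cdk6 region 5 the 1 with a larger share in WT-iMOS (3.89%). With the lists shortened, neither of these regions had a Spi1 peak in any library. With 4 libraries against 6, the smallest p the test can give is 0.00476.

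Bcl11a and Spi1 in WT-iMOS were compared at 11617 loci, and 0 passed the adjustment. With the lists shortened, 395 of 6565 loci passed it, none of them one of the 9 genes. Unadjusted, 0.508% had a larger share of libraries with Bcl11a and 6.87% with Spi1, and of the 8 genes tested here Rb1 alone was among these, on the Spi1 side. Cdk4 had a share larger by at least 0.5 with Bcl11a (4.29% of all genes), and Ccnd3 and Rb1 had one larger by at least 0.5 with Spi1 (23.2%). Among merged regions 640 of 13637 passed the adjustment, 0.161% of all with a larger share with Bcl11a and 4.53% with Spi1, and none of them was among the 17 regions tested at these genes. Unadjusted, Rb1 region 1 was the 1 of the 17 with a larger share with Spi1 (10.1% of all regions) and there was none with Bcl11a (0.601%). A share larger by at least 0.5 was found at 1 of the 17 with Bcl11a, Cdk4 region 2 (4.52% of all regions), and at 2 with Spi1, Ccnd3 region 2 and Rb1 region 1 (29.7%). Over all regions, 0 passed when T was held fixed (exact permutation within T, smallest adjusted p = 0.107). Likewise 0 passed when Bcl11a T1 replicates 2 and 3 were left out together (Fisher's exact test, smallest adjusted p = 0.0525). Both settings raise the smallest p the test can give, so the 0 cannot tell whether the 640 calls depended on them. With T held fixed, an unadjusted p under 0.05 was found at 82 regions on the Bcl11a side and 1376 on the Spi1 side, as without it.

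T2 and T1 were compared over all 16 libraries by exact permutation of the T labels within target and genotype. Of the 9 genes 7 had a smaller share of libraries in T2, and the median difference of T2 minus T1 was −0.125, the same as over all 14585 genes tested. None had a difference of 0.5 or more in either direction (0.322% of all genes larger in T2, 5.12% larger in T1). At an adjusted p of 0.05, 0 loci and 0 of 21649 regions passed, and at an unadjusted p under 0.05 there were 9 loci with a larger share in T2 (0.0617%) and 194 with a larger share in T1 (1.33%), none of them one of the 9. Of the 23 regions tested at these genes, 0 had an unadjusted p under 0.05, against 0.115% of all regions with a larger share in T2 and 0.896% with a larger share in T1. Cdkn1a region 2 was the 1 region with a share larger by at least 0.5 in T1 (3.71% of all regions), and none had one in T2 (0.508%).

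Of 22 other genes of the G1 to S transition (cyclins E and A, Cdk2, further inhibitors, the Rb1 relatives, the E2F and DP factors, Cdc25a and Skp2), 11 had Bcl11a in at least 2 libraries, 21 had Spi1 in KO-iMOS and 9 had Spi1 in WT-iMOS, beside the shares of all genes given above (25.3%, 49.8% and 33.5%). Between KO-iMOS and WT-iMOS the share of libraries was larger in KO-iMOS by at least 0.5 at 15 of the 22, beside the 34.7% of all genes given above, and at none in WT-iMOS. None passed the adjustment. Tfdp1, the partner of E2F factors, had a Spi1 peak in all 4 KO-iMOS libraries, against 0 of 6 in WT-iMOS (Fisher's exact test, p = 0.00476, adjusted p = 0.171). Skp2, which marks p27 for breakdown, had 3 of 4 and 0 of 6, while E2f5 and Tfdp2 had 4 of 4 and 1 of 6, in KO-iMOS and WT-iMOS (unadjusted p of 0.0333 and 0.0476 by Fisher's exact test). Between Bcl11a and Spi1 in WT-iMOS, 17 of the 22 were tested, and the share was larger by at least 0.5 with Bcl11a at 2 of them and with Spi1 at 4, beside 4.29% and 23.2% of all genes. Bcl11a was called at E2f3 and E2f8 in 2 of 6 libraries, and Spi1 in 6 of 6 (Fisher's exact test, p = 0.0606, adjusted p = 0.441 at each). E2f2, an activating E2F factor named here after its values were seen, had Bcl11a in 4 of 6 libraries and Spi1 in 0 of 6, with the same p and adjusted p by Fisher's exact test. Rbl2, a relative of Rb1, had a peak in all 16 libraries, as Cdk6 did, and E2f4 in 15.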

How the data were processed

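The title of a library gave its target, and the genotype label gave KO-iMOS or WT-iMOS and T2 or T1. All 16 libraries, in 6 groups, were used. The labels' protocols name a commercial CUT&Tag kit. The submitters' processing notes name Bowtie2, SAMtools, MACS2 and the build mm10, with no tool version. Peak-calling settings and any control library are not given in the sources used here. The authors deposited a separate narrowPeak list for every library, with no pooled list. A deposited peak has a position, a summit, a whole-number score, a fold (its ratio over the background that the caller estimated) and 2 significance values, the −log10 of its p-value and that of its q-value, of which the second always exceeded 2. Score, fold and −log10 values are the authors' own and were used only to rank, filter or describe peaks within a list. The lists hold no read counts, so depth is unknown and no counting interval is given. The number of libraries limits the precision. Of 131939 peaks, 130097 lay on assembled chromosomes. No 2 lists shared more than 60 identical intervals.

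The members and the list of 22 further genes were chosen with earlier results of these data known. Gene coordinates and promoter sequences were from RefSeq tables on GRCm38.p6, which mark no exons, so a place is given relative to the ends of a gene. Presence of a peak was compared by Fisher's exact test, two-sided, over all genes with a peak in at least 1 compared library or over all regions with a peak in at least 2, and T2 against T1 by exact permutation within target and genotype, with Benjamini-Hochberg adjustment over all loci or regions and a threshold of 0.05. The test of summit positions, the E-box and the forms of library counts set against all regions were chosen after the data were seen. All 9 genes are named with every region. Of the 22 genes, those are named whose share differed by at least 0.75 or that had a peak in every library of a group, up to 4 a comparison by smallest p. Tests were checked on simulated data. All steps ran in Python 3.11.15 (matplotlib 3.10.9, pandas 2.3.3, scipy 1.17.1, numpy 2.4.6).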

Additional observations from a re-analysis of the deposited data

Results flagged for a closer look

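In Cdk6 region 5 the summit of the strongest Spi1 peak in WT-iMOS T2 replicate 2 lay at position 3436218 of chromosome 5, apart from those of the other 4 WT-iMOS libraries with a peak there, for which the gap exceeded the 95% limit of Dixon's test. Among 34 groups of values looked at in this way it was the 1 that did so, and chance alone passes that limit in about 1 in 20 groups.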

How the results depend on the processing

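Of the results that answer a comparison, 177 values under other settings stayed within 1.5 times the main count and 13 moved further. With only peaks of a −log10 q above 5, Cdk6 had 4 regions, 2 of them in at least 2 libraries. With every list shortened to the length of the shortest, Cdk6 had 3 regions, 2 of them in at least 2 libraries, 2 of the 9 genes reached 2 libraries with Spi1 in KO-iMOS and 2 in WT-iMOS, and 395 loci passed the adjustment between Bcl11a and Spi1. With the gene body only, 4 of the 9 genes reached 2 libraries with Bcl11a and 4 with Spi1 in WT-iMOS. Without Bcl11a T1 replicates 2 and 3, a setting chosen after seeing the data, 4 reached 2 Bcl11a libraries. The 640 regions that differed between Bcl11a and Spi1 became 0 without these 2 libraries, 0 with T held fixed and 0 with the replicate number as a block. Each of these settings raises the smallest p that the test can give, so the 0 cannot tell whether the calls depended on it. No other cause was tested. The block left the other 5 comparisons at 0. Between genotypes it could give nothing else, since 4 blocks cannot reach an unadjusted p under 0.05. The deviations of same-numbered libraries correlated at −0.110 to 0.002 between targets, −0.007 to 0.175 between genotypes and 0.001 to 0.258 between T2 and T1. Not every pair exceeded 0.1, so the numbers were not treated as pairing the libraries. Between T2 and T1 all 8 correlations were above 0 and 8 of 12 libraries correlated best with their own number (0 of 12 between targets), a hint from the data, not the design. Leaving out single libraries gave 648 to 881 regions between targets, 6 to 8 Cdk6 regions (4 to 5 in at least 2 libraries), and 5 to 7 of the 9 genes with Bcl11a, 6 to 7 with Spi1 in KO-iMOS and 5 to 7 with Spi1 in WT-iMOS.

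Of single genes and regions, 790 values kept their side of the threshold with no turn of sign, 1 passed it newly (Rb1 region 1, given above) and 12 turned round, none of which passed an adjustment either way. Of the 790, 135 belonged to 7 results whose main difference was 0 and which had no direction to keep, and these stayed at 0 in 116 values and ran from −1 to 0.5 in the other 19. The −1 was KO-iMOS minus WT-iMOS at the Cdk6 locus with shortened lists, and 0.5 was the same difference at Ccnd2 with −log10 q above 5. As differences in share, KO-iMOS minus WT-iMOS became −0.0833 at Cdkn1b (−log10 q above 5), 0.167 at Cdkn1a (50 kb on either side) and 0.167 at Rb1 region 1 (KO-iMOS T1 libraries only). Bcl11a minus Spi1 became 0.167 (−log10 q above 5) and 0.667 (shortened lists) at the Ccnd2 locus and at its region 2, −0.167 at Cdkn1b (gene body only), −0.167 at Cdkn1a (50 kb on either side), and −0.0833 at Cdkn1b and −0.167 at Cdkn2c (without the 2 Bcl11a libraries). T2 minus T1 became 0.125 at Cdk4 (shortened lists). Depth is unknown and list lengths differ, so a missing peak is not a measured absence. T as a stratum has no meaning for T2 against T1 and was not run there.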
